A study of Mus musculus with 9 samples.

Results

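The 10 genes that carry iron into liver cells, store it, let it out again and set the level of the hormone hepcidin were followed in 9 mouse livers. These were Hamp, Bmp6, Hfe, Tfr2, Tfrc, Trf, Fth1, Ftl1, Slc40a1 and Cp, chosen by symbol from the 24411 genes of the count table, and all 10 were found there. Of these, 9 passed the filter on low counts and were among the 11199 genes tested, and Bmp6 did not pass. The study asked how keeping KEAP1 in p62 bodies, condensates of the autophagy receptor p62 (encoded by Sqstm1), shapes liver damage when autophagy is blocked. The livers came from C57BL/6 mice of 3 months on a standard diet, and every group carried 2 floxed copies of Atg7, a gene that autophagosome formation needs. Livers called cont. had no Cre recombinase. Atg7-KO livers also carried Alb-Cre, which deletes Atg7 in hepatocytes and leaves it in the other cells of the liver. The livers named Atg7-KO;p62-S351A, below shortened to S351A, carried in addition the S351A change, a serine-to-alanine replacement that weakens the hold of p62 on KEAP1, on both copies of p62. Each group had 3 livers, which the study described as biological replicates. The S351A livers numbered 2 and 3 have a genotype label that gives a different position from their title, and the title was used.

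Iron reaches hepatocytes bound to transferrin (Trf), which the transferrin receptor TFR1 (Tfrc) takes up, and is kept in ferritin, a shell of heavy (Fth1) and light (Ftl1) chains. It leaves cells only through ferroportin (Slc40a1), with the plasma ferroxidase ceruloplasmin (Cp) loading it onto transferrin. Hepcidin, the product of Hamp, is secreted by hepatocytes and closes ferroportin. Hepatocytes adjust it to iron through BMP6 from the sinusoidal endothelium, the co-receptor hemojuvelin and SMAD proteins, with HFE and TFR2 as sensors of iron-loaded transferrin, and through STAT3 in inflammation. Inside the cell the iron regulatory proteins bind hairpins in mRNA called iron-responsive elements. At the 5′ end of an mRNA such a hairpin blocks translation when iron is low, and in the 3′ UTR of Tfrc it protects the mRNA.

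The hairpins are shown because the ferritin and ferroportin mRNAs carry them at the other end from the Tfrc mRNA. The annotated mm10 transcripts (GENCODE M21) were searched on the sense strand for a C, any 5 bases, CAGTG and a base other than G, followed by 5 bases that pair with the 5 bases after the C (G–T pairs allowed). In the 5′ UTR, 3 of the 10 genes matched, against 0.105% of 21877 protein-coding genes. In the 3′ UTR only Tfrc matched among the 10, with 4 hairpins, against 0.457% of genes. UTR lengths differ between genes, and a match is a description of letters only. Capitals mark the bulged C and the loop of 6 bases in each stretch of 27 bases. The Fth1 hairpin lies at chr19:9982733-9982759 (+), that of Ftl1 at chr7:45459780-45459806 (-) and that of Slc40a1 at chr1:45925466-45925492 (-), all in the 5′ UTR. Of the Tfrc hairpins, the most upstream lies at chr16:32631220-32631246 (+) and the most downstream at chr16:32631711-32631737 (+), both in the 3′ UTR.
Fth1: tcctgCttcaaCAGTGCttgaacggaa
Ftl1: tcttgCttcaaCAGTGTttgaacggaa
Slc40a1: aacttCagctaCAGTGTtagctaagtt
Tfrc upstream: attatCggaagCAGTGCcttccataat
Tfrc downstream: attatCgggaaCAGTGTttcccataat

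Library totals were 1875325 to 15426575 counts for cont., 1945483 to 3675058 for Atg7-KO and 713841 to 792372 for S351A, so every S351A library was shallower than every other and depth and the S351A allele cannot be told apart. Levels are CPM, read counts scaled to a common library size after TMM scaling between libraries, and 3 counts in a library correspond to 0.269 to 3.73 CPM. Atg7 itself was at 45.1, 57.8 and 42.4 CPM in cont., at most 30.2 CPM in Atg7-KO and at 21.8, 24.8 and 22.2 CPM in S351A. The log2 fold change was -0.74 (adjusted p 0.00758) in Atg7-KO and -1.07 (adjusted p 0.00319) in S351A by edgeR, and the deleted exons could not be counted apart. Hepatocyte markers were abundant in every library, and 8 of the 9 were called lower in both Cre groups than in cont., against 18.1% of all genes in Atg7-KO and 13.0% in S351A. Their summed level was 52633 to 113367 CPM in cont., 37168 to 43671 in Atg7-KO and 35031 to 49052 in S351A. Markers of ductular cells ran the other way, from 47.2 to 83.3 CPM in cont. to 816 to 1202 in Atg7-KO and 719 to 1194 in S351A. Erythroid markers summed to 331 to 909 CPM in cont., 95.1 to 206 in Atg7-KO and 153 to 224 in S351A, with Hba-a1 at 0 throughout. Macrophage markers summed to 240 to 387, 338 to 464 and 293 to 333 CPM, endothelial markers to 172 to 288, 179 to 229 and 153 to 216 CPM, stellate markers to 257 to 544, 740 to 1083 and 797 to 1193 CPM, and cycling genes to 14.2 to 22.9, 114 to 151 and 103 to 109 CPM, each in the order cont., Atg7-KO, S351A. Of the 10 endothelial markers, 1 was called higher in Atg7-KO (Lyve1, mean 16.9 CPM in cont. and 68.0 in Atg7-KO). Stab2, Clec4g, Oit3 and Dnase1l3 were called lower, Oit3 with 10 to 25 counts per Atg7-KO liver. Their list had a median log2 fold change of -0.86 in Atg7-KO and -0.83 in S351A, where 1 was higher and 2 were lower. In whole liver, fewer cells of a type and less RNA per cell cannot be told apart, and what part these markers have in the results was not tested.

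The genes differed widely in abundance. On a scale of CPM per kilobase of annotated exon, Ftl1 was highest in cont. at 3462 ± 191 (SD, n = 3), followed by Trf at 2347 ± 887 and Hamp at 2123 ± 462. Trf and Hamp did not differ beyond their spread. Fth1 came next at 494 ± 54.5, then Cp at 152 ± 29.8 and Tfr2 at 104 ± 16.999. Hfe, at 9.55 ± 0.744, and Slc40a1, at 8.07 ± 1.67, lay within their spread of each other, above Tfrc at 4.50 ± 1.48 and Bmp6 at 0.137 ± 0.121. In Atg7-KO the order near the top was Ftl1 at 8070 ± 920.3, Fth1 at 1617 ± 328, Trf at 1568 ± 105 and Hamp at 585 ± 84.1, with Fth1 and Trf within their spread.

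**Figure D1:**
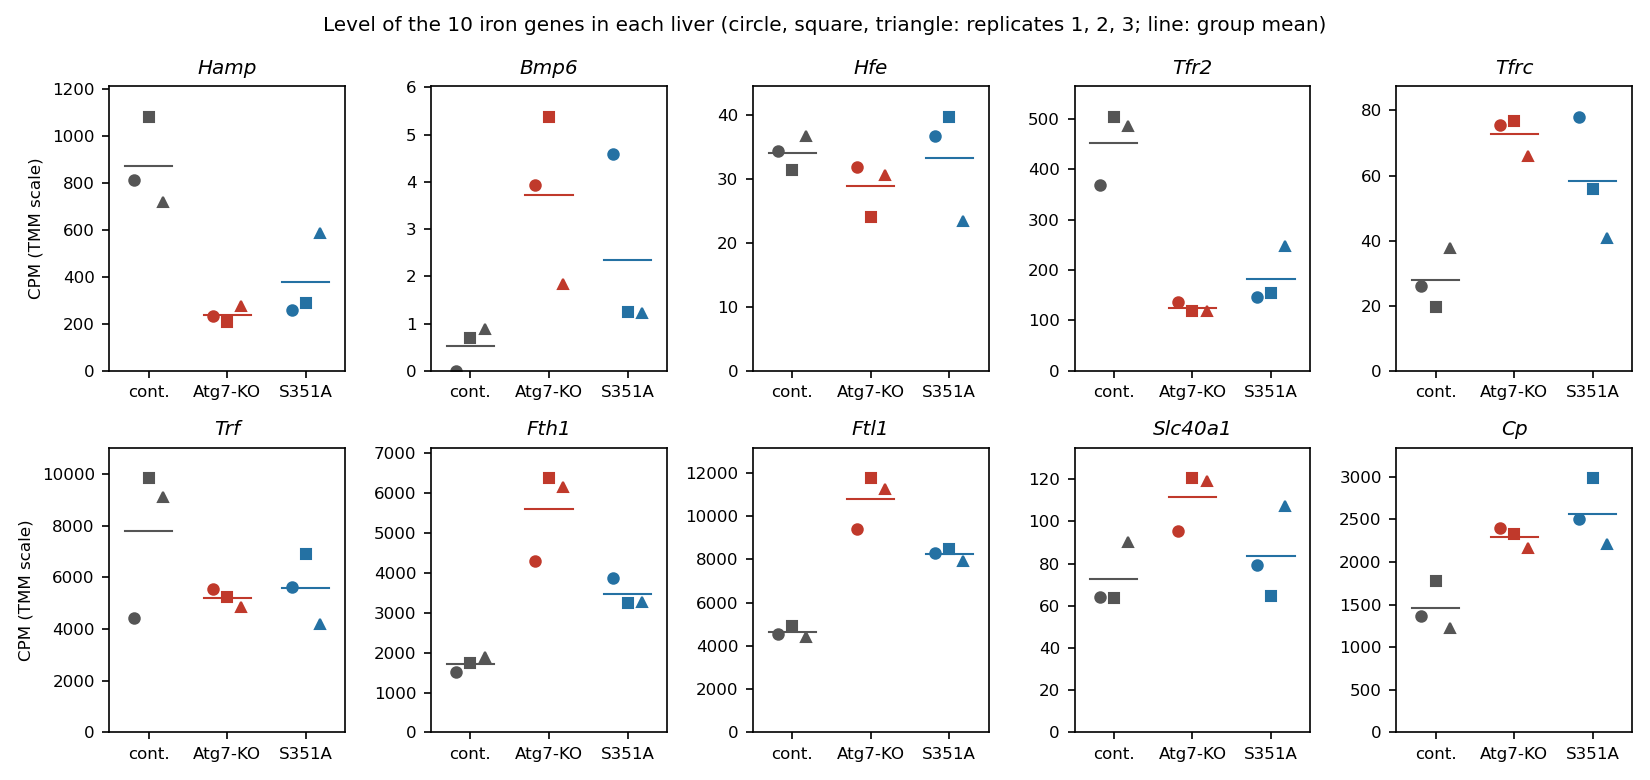
Level of each of the 10 genes in CPM on the TMM scale (vertical axis, from 0, with its own range per gene) in the 3 livers of cont., Atg7-KO and S351A; symbols are replicates and lines group means. The Hamp and Tfr2 values of all 6 livers with Cre lie below those of cont., and the Tfrc, Fth1 and Ftl1 values above. Of all genes tested, 51.6% did not overlap with cont. in Atg7-KO and 38.0% in S351A.

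The first comparison, Atg7-KO against cont., addressed what loss of autophagy in hepatocytes does to iron genes. Hepcidin mRNA and the sensor Tfr2 each fell 3.63-fold, while the uptake receptor Tfrc rose 2.55-fold and the ferritin chains rose 3.27-fold (Fth1) and 2.33-fold (Ftl1). A call required a fold change above 1.5 and an adjusted p under 0.05 (Benjamini-Hochberg over all 11199 genes, edgeR's quasi-likelihood test). By this rule 3 of the 9 tested genes were higher and 2 lower. Of all genes tested, 19.9% were called higher and 18.1% lower. The libraries of 5 of the 9 genes lay above cont. and those of 2 below it, without overlap. Over all genes these shares were 26.7% and 24.9%. The median log2 fold change over the 9 genes was 0.61, against -0.03 over all genes tested. Scaling by total library size shifted the genome-wide median by 0.549 on the log2 scale here and by 0.499 in S351A against cont. With it, 4312 genes were called higher and 796 lower here, against 2226 and 2027 under TMM, and 3541 and 510 in S351A against cont., against 1748 and 1460. Changes are given relative to TMM scaling.

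The hormone was measured first. Hamp (mm10 chr7:30942368-30944032, - strand) was at 811, 1082 and 718 CPM in cont. and at 234, 209 and 277 CPM in Atg7-KO. It was at 257, 288 and 587 CPM in S351A. Every liver with Cre was below every cont. liver, and S351A replicate 3 stood above the other 5 of them. In Atg7-KO the log2 fold change was -1.86 (SE 0.323, adjusted p 0.000814 by edgeR's quasi-likelihood test). It lay between -2.94 and -1.33 over all alternatives, and Hamp was called lower in each of them.

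Hamp2 (mm10 chr7:30922372-30924681, - strand) is a neighbouring copy of Hamp, and the counting could have split reads between the copies. Their transcripts were not compared here. The 250 bases before their start sites are identical in 227 of 253 aligned columns (89.7%). The 120 bases next to the start site are shown because they hold letters of the BMP and STAT3 inputs into hepcidin (RefSeq, GRCm38.p6, - strand, chr7:30944030-30944149 for Hamp and chr7:30924182-30924301 for Hamp2). Capitals mark GGCGCC, the core of the BMP-responsive element, and TTCTTGGAA, a STAT3 site, both searched on both strands in windows from 250 bases before to 50 after the start site.
Hamp: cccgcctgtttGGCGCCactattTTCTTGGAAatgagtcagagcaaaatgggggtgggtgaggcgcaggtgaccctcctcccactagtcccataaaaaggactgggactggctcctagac
Hamp2: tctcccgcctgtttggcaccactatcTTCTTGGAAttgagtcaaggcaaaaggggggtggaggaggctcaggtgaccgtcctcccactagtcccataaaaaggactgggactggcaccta
GGCGCC stood 109 bases before the Hamp start site and was not in the Hamp2 window, and TTCTTGGAA stood 97 bases before the start site in Hamp and 94 in Hamp2. Of all 32851 promoter windows, 11.9% hold GGCGCC and 0.417% TTCTTGGAA. Windows were found for 8 of the 10 genes, 13 in all. Among the other genes, one Tfrc window held GGCGCC and none held TTCTTGGAA. TGACNNNGC, the core of the antioxidant response element bound by NRF2, was in windows of Hfe and Bmp6 and in 12.4% of all windows. ACGTG, the core of the hypoxia response element, was in windows of Tfr2, Tfrc and Bmp6 and in 19.6% of all windows. The windows of both ferritin genes and of Cp held none of these 4 motifs. Sequence outside the windows was not searched, so no absence of an element from a gene can be read from this.

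Hamp2 varied far more than Hamp between livers. It was at 102, 3096 and 86.8 CPM in cont., at 8.35, 21.2 and 19.7 CPM in Atg7-KO and at 5.74, 27.3 and 130 CPM in S351A. All Atg7-KO livers were below all cont. livers, while S351A replicate 3 lay above 2 of the cont. livers. Against cont. its log2 fold change was -6.08 in Atg7-KO (adjusted p 0.00517, SE 1.43) and -4.34 in S351A (adjusted p 0.0281, SE 1.33), both by edgeR's quasi-likelihood test. Without cont. replicate 2 these were -2.57 (adjusted p 0.0120) and -0.82 (adjusted p 0.407), so the call in S351A was lost. Hamp2 took 74.1% of the reads of the pair in cont. replicate 2 and between 2.24% and 18.0% in the other 8 libraries. The 2 copies together were at 913, 4179 and 805 CPM in cont. With their counts added, a setting chosen after seeing the data, the log2 fold change was -2.94 in Atg7-KO (adjusted p 0.00229) and -2.19 in S351A (adjusted p 0.0153). Without cont. replicate 2 it was -1.75 in Atg7-KO (adjusted p 0.00296) and -1.01 in S351A (adjusted p 0.0610), where the call was lost.

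**Figure D2:**
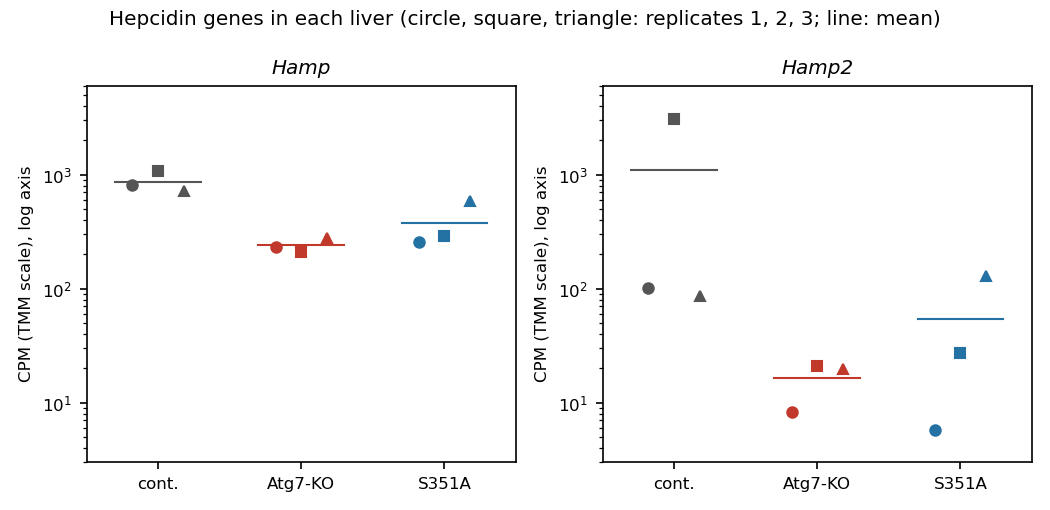
Hamp and Hamp2 in CPM on the TMM scale (vertical log axis) in the livers of each group; symbols are replicates and lines group means. Hamp2 in cont. replicate 2, at 3096 CPM, stands above the other cont. livers at 86.8 and 102 CPM.

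The upstream side of hepcidin did not move as a unit. Tfr2 (mm10 chr5:137569840-137587481, + strand), the hepatocyte sensor of loaded transferrin, was at 368, 504 and 485 CPM in cont. and at 136, 118 and 119 CPM in Atg7-KO. The groups were far apart, and the log2 fold change was -1.86 (SE 0.251, adjusted p 0.000149). The levels of S351A were 146, 155 and 248 CPM, again all below cont. Hfe (mm10 chr13:23702034-23710854, - strand), the haemochromatosis gene, was at 34.3, 31.3 and 36.6 CPM in cont. and at 31.8, 24.05 and 30.7 CPM in Atg7-KO, and these ranges overlapped. Its log2 fold change of -0.24 (95% interval -0.71 to 0.22, adjusted p 0.394) turned to 0.31 with total library size and to 0.19 without the 20 genes with most counts. In S351A it was at 36.8, 39.7 and 23.4 CPM.

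Bmp6 (mm10 chr13:38345107-38500302, + strand), the ligand that reports liver iron to hepatocytes, was near the limit of counting. It had 0, 2 and 10 counts in cont., 17, 15 and 4 in Atg7-KO and 4, 1 and 1 in S351A. As levels these were 0, 0.704 and 0.896 CPM, then 3.94, 5.38 and 1.83 CPM, then 4.60, 1.24 and 1.23 CPM, so that no liver with Cre was below a cont. liver. The 0 of cont. replicate 1 allows up to 1.91 CPM, a limit that covers counting error only. Bmp6 was tested with no filter, where the log2 fold change was 2.29 in Atg7-KO (adjusted p 0.00915) and 1.59 in S351A (adjusted p 0.251). It also entered 5 fits with 1 liver left out, which it passed into through the livers where it is high, so these add no support. In these the S351A value ranged from 0.75, without S351A replicate 1, to 1.97, and was not called. It shares exon sequence with Txndc5 on the other strand, and the strand setting of the counting was not given in the sources used here.

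The transferrin receptor and both ferritin chains were higher in Atg7-KO. Tfrc (mm10 chr16:32608920-32632794, + strand) was at 26.1, 19.7 and 37.8 CPM in cont. and at 75.6, 76.8 and 65.9 CPM in Atg7-KO. The lowest Atg7-KO liver stood well above the highest cont. liver, a rise of 1.35 on the log2 scale (SE 0.268, adjusted p 0.00183). S351A livers were at 78.1, 55.9 and 40.7 CPM, from 33 to 68 counts each, and the lowest came close to cont. replicate 3.

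Fth1 (mm10 chr19:9980598-9985098, + strand), whose chain oxidises iron on its way into the ferritin shell, was at 1509, 1752 and 1881 CPM in cont. In Atg7-KO it was at 4302, 6379.7 and 6149.7 CPM and in S351A at 3869, 3235 and 3279 CPM. None of the 3 groups overlapped. The log2 fold change in Atg7-KO was 1.71 (SE 0.262, adjusted p 0.000351). Ftl1 (mm10 chr7:45457944-45459884, - strand), the chain that helps form the iron core, was at 4573, 4922 and 4422 CPM in cont. It was at 9421, 11767 and 11252 CPM in Atg7-KO and at 8321, 8478 and 7924 CPM in S351A, in the same order of groups as Fth1 and again without overlap. Its log2 fold change in Atg7-KO was 1.22 (SE 0.246, adjusted p 0.00203). Ftl1 shares exon sequence with Gm10252 and Gm22133.

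None of the 3 genes of export and transport in plasma was called in Atg7-KO. Slc40a1 (mm10 chr1:45908068-45926523, - strand) was at 64.2, 63.7 and 90.0 CPM in cont. and at 95.6, 121 and 119 CPM in Atg7-KO, without overlap. The log2 fold change of 0.61 (95% interval 0.11 to 1.11) had an adjusted p of 0.0539 and was not called, although it was called higher in 11 of 20 alternatives, with adjusted p from 0.00152 to 0.164 over the 20. In S351A it was at 79.3, 64.6 and 107 CPM, across the range of cont. Trf (mm10 chr9:103204001-103230444, - strand) was at 4419, 9842 and 9118 CPM in cont. and at 5529.9, 5249.8 and 4840.0 CPM in Atg7-KO. Cont. replicate 1 stood below all Atg7-KO livers, and without it Trf was called lower in Atg7-KO (log2 fold change -0.88, adjusted p 0.0200), against -0.58 (adjusted p 0.184) with it. Cp (mm10 chr3:19957054-20009145, + strand) was at 1369, 1775 and 1226 CPM in cont. and at 2394, 2329 and 2167 CPM in Atg7-KO. These did not overlap, and the log2 fold change of 0.66 (95% interval 0.12 to 1.19) had an adjusted p of 0.0506, just outside the call. Cp was called higher in 10 of 20 alternatives. Trf shares exon sequence with Gm20425 and Cp with Hps3.

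The second comparison, S351A against cont., addressed what remained of these changes when p62 held KEAP1 less tightly. Hamp was 2.31-fold and Tfr2 2.47-fold lower than in cont., and Tfrc was 2.05-fold, Fth1 2.02-fold, Ftl1 1.78-fold and Cp 1.76-fold higher. In all, 4 of the 9 genes were called higher and 2 lower, while 15.6% of all genes tested were called higher and 13.0% lower. The libraries of 4 of the 9 lay above cont. and those of 2 below it without overlap, beside 19.6% and 18.4% of all genes. The median log2 fold change over the 9 genes was 0.19, against -0.03 over all genes tested. This comparison shares its control livers with the first. The log2 fold changes were -1.20 for Hamp (SE 0.319, adjusted p 0.0141), -1.31 for Tfr2 (SE 0.250, adjusted p 0.00250), 1.03 for Tfrc (SE 0.285, adjusted p 0.0172) and 1.01 for Fth1 (SE 0.257, adjusted p 0.0114) by edgeR's quasi-likelihood test. Those of Ftl1 and Cp were 0.83 (adjusted p 0.0236) and 0.82 (adjusted p 0.0259). Cp was at 2507, 2985 and 2210.2 CPM in S351A, every liver above every cont. liver. Slc40a1 differed from cont. by 0.19 (95% interval -0.33 to 0.72), Hfe by -0.04 (95% interval -0.55 to 0.47) and Trf by -0.48 (95% interval -1.20 to 0.23). Trf was at 5642, 6892 and 4193 CPM, and its change was 0.012 with total library size.

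Several calls in S351A were lost when 1 liver was left out. Without S351A replicate 1 the call of Tfr2 remained and those of Hamp, Tfrc, Fth1, Ftl1 and Cp were lost, and without S351A replicate 2 those of Tfrc, Tfr2 and Fth1 remained. With each liver left out in turn, the log2 fold changes ranged from 0.91 to 1.07 for Fth1, from 0.78 to 0.86 for Ftl1, from 0.67 to 0.97 for Cp, from 0.75 to 1.36 for Tfrc and from -1.69 to -1.00 for Hamp. Over 20 alternatives the call of Ftl1 was lost in 5 and that of Cp in 7. Both were lost with no filter and without Atg7-KO replicate 3, and Cp also without Atg7-KO replicate 2 or cont. replicate 3. Hamp was also not called with total library size (-0.71, adjusted p 0.114) or without the 20 genes with most counts (-0.81, adjusted p 0.0728). With every library thinned to the smallest total, the same 6 genes were called in S351A, and in Atg7-KO the same 5 and in addition Slc40a1 and Cp.

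**Figure D3:**
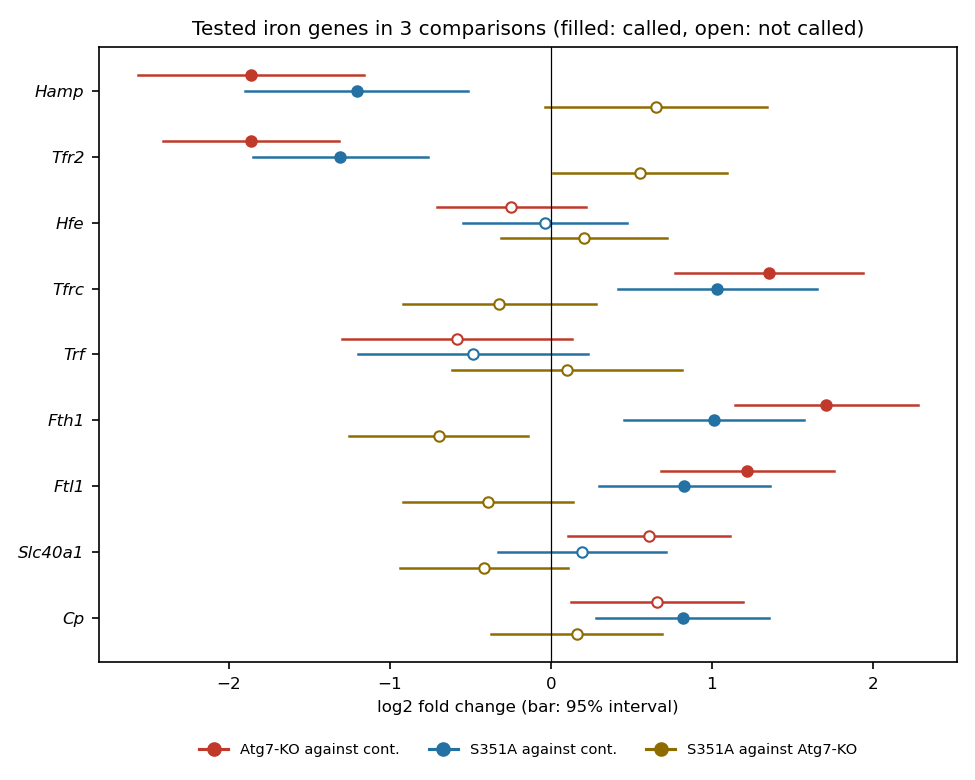
Log2 fold change (horizontal axis) with its 95% interval for the 9 tested genes in the 3 comparisons, from edgeR; filled circles were called and open circles were not. The intervals of Hamp and Tfr2 lie below 0 and those of Tfrc, Fth1 and Ftl1 above 0 in both comparisons with cont., and no gene was called in S351A against Atg7-KO.

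The third comparison, S351A against Atg7-KO, set livers with the p62 mutation beside livers without it, with Atg7 deleted in the hepatocytes of both. None of the 9 genes was called by edgeR's quasi-likelihood test, by DESeq2 or by limma-voom. Over all genes edgeR called 0.00893%, which is a single gene, Tekt5, named here after its values were seen. DESeq2 called 40 genes and limma-voom 0. At an unadjusted p under 0.05, 2 of the 9 genes stood out, Tfr2 and Fth1, against 6.60% of all genes tested. The libraries of 3 of the 9 did not overlap between the groups, against 16.9% of all genes. Tfr2 was higher in every S351A liver, with a log2 difference of 0.55 (95% interval 0.01 to 1.09, adjusted p 0.755). Fth1 was lower in every S351A liver by -0.70 (95% interval -1.25 to -0.14, adjusted p 0.696), and so was Ftl1 by -0.39 (95% interval -0.92 to 0.14, adjusted p 0.842). Hamp differed by 0.65 (95% interval -0.03 to 1.34, adjusted p 0.770), with S351A replicates 1 and 2 at 257 and 288 CPM beside an Atg7-KO maximum of 277 CPM. With each liver left out in turn, the difference ranged from 0.18 to 0.87 for Hamp and from 0.27 to 0.69 for Tfr2. Tfrc differed by -0.32 (95% interval -0.92 to 0.28), Slc40a1 by -0.41 (-0.93 to 0.11), Trf by 0.10 (-0.61 to 0.81), Cp by 0.16 (-0.37 to 0.69) and Hfe by 0.21 (-0.31 to 0.72), and the libraries of these 5 overlapped. These intervals leave room for differences of the size seen against cont. in some genes, and no similarity of the groups can be read from them.

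Ratios of 2 genes within a library do not depend on the scaling between libraries. A set of 4 ratios was tested with an exact permutation test of the between-group sum of squares over all 280 divisions of the 9 livers into 3 groups of 3, for which the smallest p is 0.00357, and p-values were adjusted over the 4. The ratio of Tfrc to Tfr2 counts had a geometric mean of 0.0604 for cont., 0.584 for Atg7-KO and 0.319 for S351A (exact permutation p 0.00357, the smallest possible, adjusted p 0.00714). S351A livers spread widely, with ratios of 0.537, 0.363 and 0.166, and the highest lay close to Atg7-KO. The ratio of Hamp to Slc40a1 was 11.9 for cont., 2.14 for Atg7-KO and 4.27 for S351A (exact permutation p 0.00357, adjusted p 0.00714), and its 3 groups did not overlap. Tfrc, Tfr2 and Hamp were already called above, so the p-values of both ratios add no separate support. As tests over 3 groups they do not tell S351A from either other group. The Ftl1 to Fth1 ratio was 2.72 for cont., 1.95 for Atg7-KO and 2.39 for S351A (exact permutation p 0.0286, adjusted p 0.0381). The S351A livers, at 2.15, 2.62 and 2.42, overlapped both other groups, and this p over 3 groups does not tell S351A from either. The ratio of Tfrc to Fth1 was 0.0159, 0.0132 and 0.0165 in the same order, with overlapping livers in all 3 groups (exact permutation p 0.5, adjusted p 0.5).

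**Figure D4:**
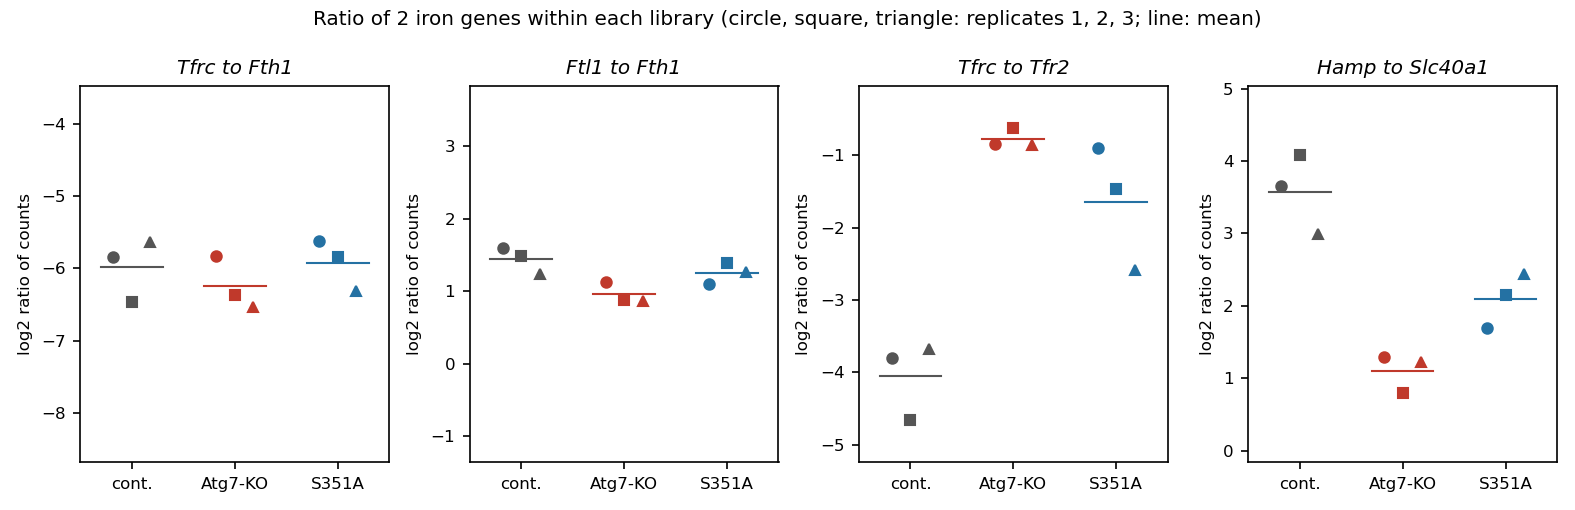
Log2 ratio of the counts of 2 genes within each library (vertical axis, the same span of units in each panel), by group; symbols are replicates and lines means. The Tfrc to Tfr2 and Hamp to Slc40a1 ratios of all 6 livers with Cre are apart from cont., while Tfrc to Fth1 overlaps.

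The rest of iron biology was followed in 5 lists with 68 genes, of which 61 were tested. In Atg7-KO 9 were called higher and 15 lower, beside 19.9% and 18.1% of all genes tested, with a median log2 fold change of -0.08 against -0.03. In S351A against cont. 6 were called higher and 10 lower, beside 15.6% and 13.0%, with a median of -0.04, and in S351A against Atg7-KO none was called by edgeR, with 5 at an unadjusted p under 0.05, beside 6.60% of all genes. Steap2, Heph, Lcn2 and Cd163 passed the filter on low counts only with the livers of a group where they are high, so their calls give the counts no support. The list counts that follow are to be read against the same shares of all genes, and nothing particular to a list was read from them.

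Among 19 tested genes of the BMP pathway to hepcidin, 2 were higher and 3 lower in Atg7-KO (19.9% and 18.1% of all genes). Id1, a target of BMP signalling, was at 10.8, 7.39 and 10.1 CPM in cont., at 26.9, 21.2 and 34.8 CPM in Atg7-KO and at 37.9, 13.7 and 27.1 CPM in S351A. It rose while Hamp fell, by a log2 fold change of 1.54 in Atg7-KO (adjusted p 0.00228) and of 1.48 in S351A (adjusted p 0.00822). Tmprss6, the protease that trims hemojuvelin and so restrains hepcidin, was lower by -1.06 (adjusted p 0.00106) in Atg7-KO and by -0.76 (adjusted p 0.0115) in S351A, calls lost in 1 and 3 of 20 alternatives. The ligand gene Bmp2 was lower in Atg7-KO by -1.07 (adjusted p 0.0166), with 8.97 to 13.7 CPM against 14.6 to 33.1 CPM, a call lost in 5 of 19 alternatives. Furin, a protease that cuts hepcidin from its precursor, had a log2 fold change of -0.63 and Fkbp1a, a binder of BMP type I receptors, one of 0.76, and these calls were lost in 9 and 6 of 20 alternatives. The remaining 14 tested genes were not called. Among them were the gene of hemojuvelin (listed as Hfe2), with a log2 fold change of -0.08 (adjusted p 0.830), and the SMAD genes Smad1, Smad4 and Smad5. Id3 (-0.66), Smad6 (-0.45) and Smad7 (-0.03) had negative values without a call, and Id2 (0.22) and Atoh8 (0.50) had positive values without a call. The call of Id1 was thus not shared by these genes, and whether BMP signalling changed was not tested.

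Of 8 tested genes of the inflammatory route, 2 were lower in Atg7-KO (18.1% of all genes). Creb3l3, a liver transcription factor, was at 332 to 409 CPM in cont. and at 147 to 184 CPM in Atg7-KO (log2 fold change -1.21, adjusted p 0.00129), and fell in S351A by 1.07 on the log2 scale (adjusted p 0.00488). Crp, an acute-phase gene, was lower in Atg7-KO by -1.33 (adjusted p 0.00306). Stat3 had a log2 fold change of 0.46 (adjusted p 0.103) and Socs3 one of -0.14 (adjusted p 0.776), and neither was called. Il6 had a maximum of 1.15 CPM in any library and was not tested.

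Of 13 tested genes of iron transport, 4 were higher and 3 lower in Atg7-KO (19.9% and 18.1% of all genes). Slc11a1, an exporter of metal from the phagosomes of macrophages, was at 12.7, 14.4 and 13.2 CPM in cont., at 77.5, 78.6 and 67.3 CPM in Atg7-KO and at 40.2, 54.6 and 51.8 CPM in S351A, in 3 groups without overlap. Its log2 fold change was 2.47 in Atg7-KO (adjusted p 3.78e-06) and 1.86 in S351A (adjusted p 8.43e-05). Of the 10 macrophage markers, 4 were higher in Atg7-KO (Csf1r, Cd68, C1qa and Adgre1), 2 were lower (Timd4 and Cd163) and 4 were not called. Their median log2 fold change was -0.03, against -0.03 over all genes tested. Timd4 and Cd163 passed the count filter through cont., where they are high, so their calls add no support. Timd4 had 3 to 10 counts and Cd163 had 3 to 5 counts per Atg7-KO liver. In S351A 3 of the markers were higher and 1 was lower. Their part in the Slc11a1 result was not tested. Lcn2, which binds the iron carriers of bacteria, rose from 1.97 to 11.6 CPM in cont. to 120 to 170 CPM in Atg7-KO (log2 fold change 4.79, adjusted p 3.53e-05) and 109 to 191 CPM in S351A (4.72, adjusted p 8.79e-05). Its log2 fold change was 4.13 in Atg7-KO and 4.04 in S351A without cont. replicate 3, and 5.92 and 5.83 without cont. replicate 2, and it was called in each. Heph, a membrane ferroxidase related to ceruloplasmin, had 0, 1 and 7 counts in cont. and 29.9, 19.4 and 24.7 CPM in Atg7-KO, a fitted log2 fold change of 5.54 whose size depends on those few counts (adjusted p 3.12e-05) and which was 6.43 without cont. replicate 3. No cont. library and 1 S351A library reached the count filter, which Heph passed through Atg7-KO. In S351A it was at 13.8, 1.24 and 3.70 CPM (3.59, adjusted p 0.00537), which was 4.48 without cont. replicate 3 and 2.24, no longer called, without S351A replicate 1. Steap2, an endosomal ferrireductase, rose by 2.07 in Atg7-KO (adjusted p 0.000405) and by 1.53 in S351A (adjusted p 0.00956), where it was 0.94 and not called (adjusted p 0.0962) without S351A replicate 1. Among importers of iron not bound to transferrin, Slc39a14 (-1.20, adjusted p 0.0313) and Slc11a2 (-0.67, adjusted p 0.0142) were called lower in Atg7-KO, and Slc39a8 was not (-0.52, adjusted p 0.212). The first call was lost in 8 and the second in 5 of 20 alternatives, and neither gene was called in S351A (adjusted p 0.0696 and 0.0801). Slc25a37, a mitochondrial iron importer, was called lower in both Cre groups (adjusted p 0.04997 and 0.0436) but rested on cont. replicate 3 at 157 CPM beside 62.3 and 34.2 CPM, and without that liver its log2 fold change in Atg7-KO was -0.24 (adjusted p 0.480) and in S351A -0.48 (adjusted p 0.225).

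Of 9 tested genes for haem handling, 2 were higher and 3 lower in Atg7-KO (19.9% and 18.1% of all genes). Slc48a1, which moves haem out of the lysosome, was at 44.5, 42.6 and 36.6 CPM in cont., at 224, 275 and 249 CPM in Atg7-KO and at 201, 166 and 117 CPM in S351A. The log2 fold change was 2.602 in Atg7-KO (adjusted p 1.04e-05) and 1.98 in S351A (adjusted p 0.000143). Blvrb, a reductase of biliverdin and flavins, rose by 1.117 in Atg7-KO (adjusted p 0.00123) and differed by 0.26 in S351A (adjusted p 0.383). Lrp1, the receptor for haem-bound hemopexin, was lower by -1.38 in Atg7-KO (adjusted p 0.000788) and by -1.11 in S351A (adjusted p 0.00495). Cd163, the macrophage receptor for haemoglobin, was at 13.3, 16.9 and 16.0 CPM in cont. and at 0.696 to 1.79 CPM in Atg7-KO, from few counts (log2 fold change -3.64, adjusted p 0.000359). It passed the count filter through cont., with no Atg7-KO library and 1 S351A library at the limit, so its call adds no support to the count of the list. Slc46a1, a folate and haem importer, had a log2 fold change of -0.68 in Atg7-KO (adjusted p 0.0296) and of -0.81 in S351A (adjusted p 0.0385), calls lost in 9 and 13 of 19 alternatives. The haem oxygenase gene Hmox1 was not called, with 0.59 (adjusted p 0.249) in Atg7-KO and 1.08 (adjusted p 0.0848) in S351A.

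In the list for sensing and intracellular handling, 1 gene was higher and 4 were lower of 12 tested in Atg7-KO (19.9% and 18.1% of all genes). Both genes of the iron regulatory proteins were lower in both Cre groups. Aco1 was at 136, 143 and 178 CPM in cont. and at 87.5, 79.0 and 95.6 CPM in Atg7-KO (log2 fold change -0.81, adjusted p 0.00746), and changed by -0.93 in S351A (adjusted p 0.00604). Ireb2 was at 114, 64.8 and 115 CPM in cont. and at 47.1, 48.5 and 54.9 CPM in Atg7-KO (-0.96, adjusted p 0.0132), and changed by -1.04 in S351A (adjusted p 0.0178), where the highest liver, at 67.9 CPM, overlapped cont. Both stayed negative with total library size but were no longer called, at -0.26 and -0.42 in Atg7-KO. Pcbp1, a chaperone that brings iron to ferritin, was lower by -0.75 (adjusted p 0.00846) and -0.76 (adjusted p 0.0130) in the 2 Cre groups, and Cisd1, an iron-sulfur protein of mitochondria, by -1.08 (adjusted p 0.00268) and -0.85 (adjusted p 0.0182). Of 20 alternatives in each comparison, the call was lost in 4 in Atg7-KO and 3 in S351A for Pcbp1, in 1 and 5 for Cisd1, and in 5 and 5 for Ireb2. Glrx3, an iron-sulfur glutaredoxin, had a log2 fold change of 0.68 in Atg7-KO (adjusted p 0.0477), a call lost in 10 of 20 alternatives. Ncoa4, the receptor that sends ferritin to autophagosomes, was not called, with -0.29 (adjusted p 0.380) in Atg7-KO and -0.42 (adjusted p 0.230) in S351A.

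**Figure D5:**
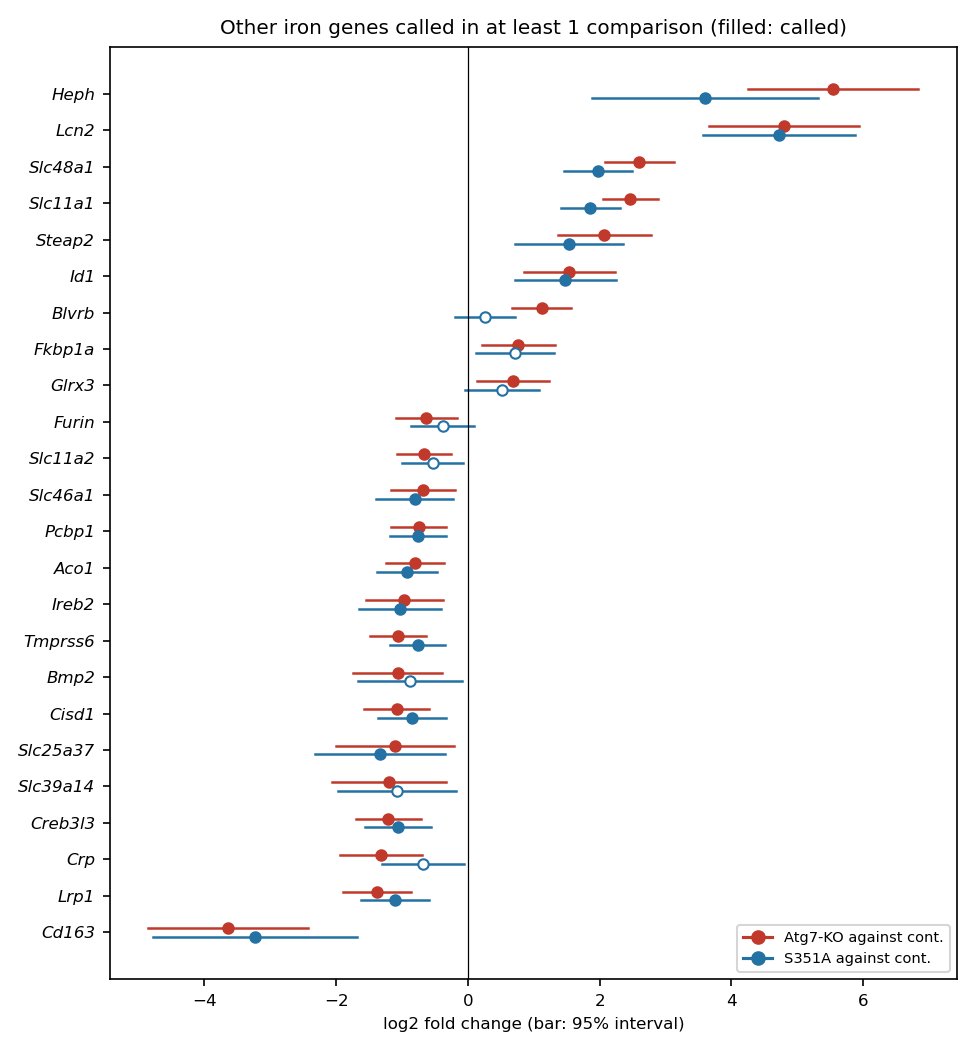
Log2 fold change (horizontal axis) with its 95% interval for the 24 other iron genes called in at least 1 comparison with cont., ordered by Atg7-KO against cont.; filled circles were called. Heph and Lcn2 lie at the top of the Atg7-KO order and Cd163 at the bottom.

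Between S351A and Atg7-KO the 5 iron genes at an unadjusted p under 0.05 were Slc11a1, Heph, Slc48a1, Blvrb and Crp. The first 4 were lower in every S351A liver than in every Atg7-KO liver, by log2 differences of -0.61, -1.95, -0.63 and -0.86, and Crp was higher by 0.65. Over all genes 6.60% had such a p and 16.9% did not overlap between these groups. None passed adjustment, with adjusted p from 0.364 (Blvrb) to 0.755 (Crp).

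Genes whose log2 CPM ran most like that of a member were sought among 8806 genes with a mean of at least 10 CPM over the 9 livers. The 9 points fall into the 3 groups, so a gene that differs between the groups in the same way scores high. The genes most like Hamp were Fpgs, Uimc1, U2af2, Coq10a and Cnot8, with Pearson r from 0.988 to 0.991. Fpgs was at 273 to 380.0 CPM in cont., 76.1 to 81.9 in Atg7-KO and 83.9 to 179 in S351A. The genes most like Tfrc were Prss8, Slc38a10, Bok, Igf2r and Clic4, with r from 0.974 to 0.980. Prss8 was at 1.41 to 7.08 CPM in cont., 50.6 to 54.9 in Atg7-KO and 16.0 to 44.8 in S351A.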

How the data were processed

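The 10 genes and the lists of iron genes and cell type markers were chosen with earlier results of these data known. Poly(A) RNA of 9 livers was sequenced. The authors mapped reads to mm10 with STAR after Trim Galore and deposited RSEM expected counts per gene symbol, unscaled, and the versions and annotation were not given in the sources used here. RNA was extracted with TRIzol in the study's methods and with a column kit in the labels. Between 4.40% and 7.75% of values per library were not whole, and counts were rounded. In R 4.3.3 with edgeR 4.0.16, filterByExpr (minimum count 10, minimum total 15) kept 11199 of 24411 genes, libraries were scaled by TMM, and all 9 livers entered a single quasi-likelihood fit by group. p-values were adjusted by Benjamini-Hochberg over all genes tested. SEs are those implied by the test. The code was tested on simulated data. Ratios had 0.5 counts added to each gene. Likeness used log2 CPM with a prior count of 2. The p-values measure the spread between livers.

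Named genes were all 10 members, Hamp2, every gene of the iron lists called in at least 1 comparison, and for Hamp and Tfrc the 5 genes with the highest Pearson r. Counts of ferritin copies were also planned and are not given here. Markers were to be given by count and summed level. Uncalled genes of the iron lists and single markers that are named were chosen after their values were seen. Xist and Y-linked genes gave the sex of each liver, 1 female and 2 males in cont. and 2 females and 1 male in each of the other groups. Alternatives were other scalings (RLE, total counts, totals leaving out the 20 most abundant genes), other filters (none, or 10 or more counts throughout), other tools (limma-voom with limma 3.58.1, DESeq2 1.42.0), the 6 compared livers alone, replicate number as a block, sex as a covariate, thinning to the smallest library, no fold change limit, 2 added counts in the ratios, and leaving out each liver. Positions came from GENCODE M21 and promoters from RefSeq.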

Additional observations from a re-analysis of the deposited data

How the results depend on the processing

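Over 182 values of the 9 tested genes under the alternatives in Atg7-KO against cont., 158 kept direction and side of the threshold, 22 passed it anew (Slc40a1, Cp and Trf) and 2 changed sign. In S351A against cont. these were 150, 2 and 10, and 20 calls were lost. In S351A against Atg7-KO 181 were kept and 1 changed sign. The number of the 10 genes called in Atg7-KO was 5 to 7 under every alternative, leaving out 1 liver included. In S351A against cont. it was 6, but 3 with the 6 compared livers alone (Hamp, Ftl1 and Cp lost), 4 with no filter (Ftl1 and Cp lost) and 5 when the 20 most abundant genes were left out of the totals (Hamp lost). Total counts gave 6 with Hamp lost and Slc40a1 added. With Hamp and Hamp2 added and cont. replicate 2 left out it was 5. It ranged from 1 to 7 when 1 liver was left out. The cause was not tested. In S351A against Atg7-KO it was 0 under every alternative. Over all genes, calls in Atg7-KO fell from 4253 to 2504 under the strict filter (10 or more counts throughout) and to 2588 after thinning. In S351A against cont. they fell from 3208 to 1941, 2053 and, in the 6 livers alone, 1849, and without S351A replicate 1 to 2098. In S351A against Atg7-KO, against 1, there were 98 with no filter, 40 with DESeq2, 10 in the 6 livers alone, 2 after thinning, 0 with limma-voom and the strict filter, and 0 to 3 with 1 liver left out.

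The sign changes were all in genes not called there. Hfe in Atg7-KO was 0.31 when scaled by total counts and 0.19 when the 20 most abundant genes were left out of the totals. Hfe in S351A against cont. was 0.46 and 0.35 under these scalings, 0.0286 under the strict filter, 0.035 in the 6 livers alone, 0.0298 with sex as a covariate and 0.0398 after thinning, and ranged from -0.21 to 0.14 when 1 liver was left out. Trf in S351A against cont. was 0.0123 when scaled by total counts. With 1 liver left out, Slc40a1 there ranged from -0.0437 to 0.38, and Trf in S351A against Atg7-KO from -0.0823 to 0.26. The livers share replicate numbers across groups, but deviations from the group means correlated over 0.1 in 5 of 9 same-numbered pairs (-0.0415 to 0.306), so the numbers were not taken as pairing. With the replicate block 7, 6 and 0 of the genes were called in the 3 comparisons, Slc40a1 (0.64) and Cp (0.68) being added in Atg7-KO. The 24 other iron genes kept their direction under the alternatives run, in each comparison where they were called. In S351A, Bmp6 rests on 1 to 4 counts per liver and Hfe, Tfrc and Slc40a1 on 19 to 87.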

Other observations

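In each group the livers that Xist marks as female had more Hamp2 than those with Y-linked transcripts. The female of cont. was at 3096 CPM beside males at 86.8 and 102 CPM. In Atg7-KO the females were at 21.2 and 19.7 CPM and the male at 8.35 CPM, and in S351A the females were at 27.3 and 130 CPM and the male at 5.74 CPM. Hamp in the same order was at 1082 CPM beside 718 and 811 CPM, at 209 and 277 CPM beside 234 CPM, and at 288 and 587 CPM beside 257 CPM. This was seen after the values were known and was not tested. With sex as a covariate in edgeR's quasi-likelihood test, Hamp was lower by -1.97 in Atg7-KO (adjusted p 0.000314) and by -1.36 in S351A (adjusted p 0.00562).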
